A study of Rattus norvegicus with 8 samples.

Results

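The genes described here were *Nfe2l2*, *Hmox1*, *Nqo1*, *Gclc*, *Gclm*, *Txnrd1*, *Srxn1*, *Sod1*, *Sod2* and *Gpx4*, which encode the transcription factor NRF2 and enzymes of antioxidant defence. They were found on a whole-genome rat expression array by matching the RefSeq accession of each non-control probe to these symbols, which gave 12 probes for 10 genes out of 45598 probes and 16678 named genes. *Txnrd1* and *Gpx4* had 2 probes each, and the brighter probe stood for the gene. RNA came from the *substantia nigra* (SN), the midbrain region that holds the dopaminergic (DA) neurons lost in Parkinson's disease, on the injected side of adult female Sprague-Dawley rats, which the methods give as 3 months old when housed, before surgery. The SN had received, on that side only, either AAV-Null, an empty adeno-associated virus serotype 6 vector at 5.3e9 vector genomes per µL, or AAV-aSyn, the vector for wild-type human α-synuclein at 5.2e10 vector genomes per µL. Tissue was taken 20 weeks after surgery. Each group had 4 arrays out of 10 animals assigned to it. Both groups carried vector, and because the titre differed with the transgene, an effect of dose and an effect of α-synuclein cannot be told apart. Nothing in the labels says that each array was a separate animal, so the p-values below measure the spread between these arrays.

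NRF2 is held low in unstressed cells by KEAP1, which hands it to an ubiquitin ligase. When oxidants or electrophiles modify KEAP1, NRF2 accumulates, pairs with a small MAF protein and binds antioxidant response elements near genes for glutathione synthesis, thioredoxin recycling, quinone reduction and heme breakdown. BACH1 competes for the same elements. In the brain this response is known to be strong in astrocytes, while DA neurons carry an oxidant load from dopamine metabolism and mitochondria.

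The sequences below show the core of the antioxidant response element, the letters TGACNNNGC, where it lay ahead of the transcription start of a gene described here. RefSeq promoters of the GRCr8 build, running from 250 bases before to 50 bases after each start, were searched on both strands. Of the 10 genes, 9 had a promoter in the table, all but *Hmox1*, and *Gclm*, *Txnrd1*, *Sod2* and *Nfe2l2* held a match. *Txnrd1* had 2 promoters, of which 1 held it. The share over all genes with a promoter was 13.1% (3602 of 27457). The match of *Nfe2l2* lay after its start and is not shown. Each window is written 5′ to 3′ in the direction of the gene, with the match in capitals, and all 3 matches lay on the strand opposite to the gene.
Gclm, chr2:213031943-213031991, plus strand, positions -172 to -164 from the start: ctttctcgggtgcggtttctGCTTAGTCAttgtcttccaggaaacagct
Txnrd1, chr7:22755954-22756002, minus strand, positions -78 to -70 from the start: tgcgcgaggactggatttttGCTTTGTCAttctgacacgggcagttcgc
Sod2, chr1:50050175-50050223, minus strand, positions -35 to -27 from the start: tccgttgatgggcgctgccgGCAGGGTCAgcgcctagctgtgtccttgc
A match is a description of the letters and not a measured binding site, and elements lying further from a start were outside these windows. Among the genes with a match, the expression differences given below ran from 0.05 for *Sod2* to 0.17 for *Nfe2l2* on the log2 scale, and *Gclm* could not be measured. Among those with a promoter and no match they ran from -0.05 for *Sod1* to 0.12 for *Gclc*. A relation between match and expression was not tested.

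No difference between AAV-aSyn and AAV-Null passed the test for the 9 genes that could be measured, and *Gclm* was too dim to compare. The 9 that were above background on all 8 arrays showed differences between -0.05 and 0.17 on the log2 scale, with standard errors from 0.062 to 0.14, and in each of them the AAV-aSyn arrays overlapped the AAV-Null arrays. By limma's moderated test none had an unadjusted p under 0.05 (0 of 10, against 5.69% of the 33848 probes tested, 3.42% higher and 2.27% lower in AAV-aSyn), and none passed after Benjamini-Hochberg adjustment over all those probes (0 of 10, against 0.0148%). Groups without overlap were seen in 3.83% of all probes and in 0 of 10 of these genes. The unadjusted p ran from 0.155 to 0.886. Of the 9 genes, 6 were above 0 and 3 below, with a median of 0.05, while the median over all tested probes was 0.01. The 95% confidence intervals of the probes standing for these 9 genes lay between -0.22 and 0.51, that is between 0.861-fold and 1.42-fold. Each interval is given below and bounds only its own probe. In bulk tissue a lower number of cells of a type and less RNA per cell cannot be told apart, and the same holds for gains.

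**Figure D1:**
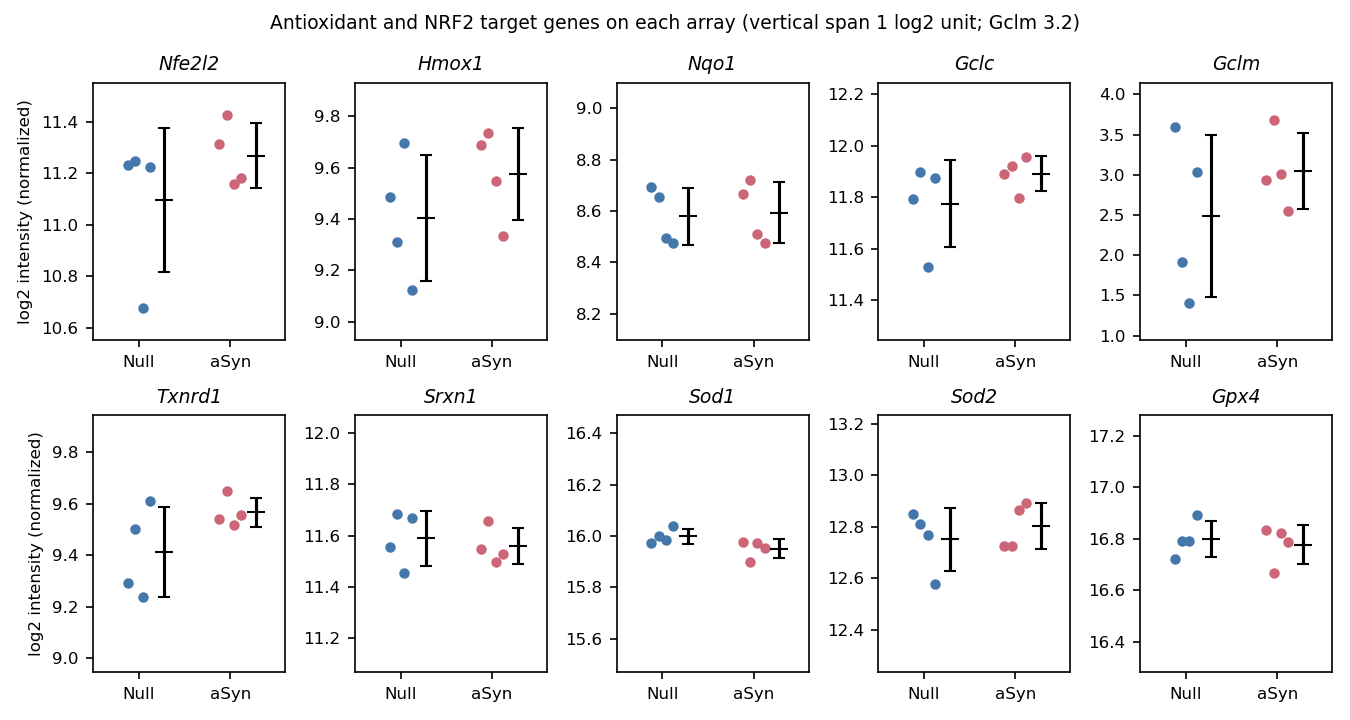
Normalised log2 intensity of the 10 genes on each array (y axis), with the AAV-Null arrays beside the AAV-aSyn arrays, 4 per group as points, and the mean ± SD of each group as a bar. The groups overlap for every gene, and AAV-Null replicate 3 lies below the rest for Nfe2l2 at 10.67.

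*Nfe2l2*, which encodes NRF2 itself, was measured by probe A_64_P060598 (NM_031789), printed in 2 spots. Its normalised log2 intensity was 11.23, 11.25, 10.67 and 11.23 on the 4 AAV-Null arrays. It was 11.31, 11.43, 11.16 and 11.18 on the 4 AAV-aSyn arrays. AAV-Null replicate 3 was lower than every other array, with both of its spots low (10.73 and 10.62), and the other 7 arrays lay between 11.16 and 11.43. The means were 11.10 ± 0.28 and 11.27 ± 0.13 (SD, n = 4 each), a difference of 0.17 with a 95% interval from -0.16 to 0.51 (limma p = 0.264, adjusted p = 0.971, exact two-sided permutation p = 0.371). Without AAV-Null replicate 3 the difference was 0.03. The barcodes placed each array on the slide by 2 digits, called slide column and slide row here. Each of the 2 columns held 2 arrays of each group. The difference was -0.00 in the column with AAV-Null replicates 2 and 4 and AAV-aSyn replicates 1 and 3, called the first column from here on, and 0.35 in the other, which held AAV-Null replicate 3.

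The enzymes of glutathione synthesis were *Gclc* and *Gclm*, the catalytic and the modifier subunit of glutamate-cysteine ligase, the rate-limiting step. *Gclc* (A_64_P056846, NM_012815, 2 spots) read 11.79, 11.90, 11.53 and 11.88 in AAV-Null and 11.89, 11.92, 11.80 and 11.96 in AAV-aSyn. AAV-Null replicate 3 was again the lowest array, and the remaining values fell within 11.79 to 11.96 in both groups. The difference of 0.12 (SE 0.098) had an interval from -0.11 to 0.34 (limma p = 0.266, adjusted p = 0.971, exact permutation p = 0.229). It was 0.04 without AAV-Null replicate 3, and by slide column it was -0.04 in the first and 0.28 in the other. *Gclm* (A_44_P1011898, NM_017305) was dim. It was well above background on 1 AAV-Null array, where it read 3.59, and on 0 of 4 AAV-aSyn arrays. Its other 7 readings were between 1.40 and 3.68, which is near the lowest level above background on these arrays (2.59 to 3.49). No fold change is given for *Gclm*, which is left out of the medians and of the plots of differences.

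In the thioredoxin system, thioredoxin reductase 1 (*Txnrd1*) uses NADPH to recycle thioredoxin, and sulfiredoxin (*Srxn1*) restores overoxidised peroxiredoxins. The brighter *Txnrd1* probe (A_44_P134070, NM_031614) read 9.29, 9.50, 9.24 and 9.61 in AAV-Null and 9.54, 9.65, 9.52 and 9.56 in AAV-aSyn. The AAV-aSyn arrays lay closer together (SD 0.058) than the AAV-Null arrays (SD 0.18). AAV-aSyn replicate 2 was above all AAV-Null arrays, and the other AAV-aSyn arrays were above 3 of the 4. The difference of 0.15 (SE 0.099, interval -0.07 to 0.38) had the lowest limma p of the 10 genes (limma p = 0.155, adjusted p = 0.961, exact permutation p = 0.200). Leaving out 1 array gave from 0.10 without AAV-Null replicate 3 to 0.22 without AAV-Null replicate 4, the latter with an unadjusted limma p of 0.0403 that did not pass the adjustment. Within the slide columns it was -0.03 and 0.34. The other *Txnrd1* probe (A_64_P076475, NM_001351984) gave 0.02 (adjusted p = 0.993), with 0.21 and -0.16 in the columns, so the probes ran opposite ways within each column. The mean of both probes differed by 0.09 (exact permutation p = 0.0571).

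*Srxn1* (A_42_P842833, NM_001047858) read 11.55, 11.68, 11.45 and 11.67 in AAV-Null and 11.55, 11.66, 11.50 and 11.53 in AAV-aSyn. The values of AAV-aSyn fell inside the range of AAV-Null. The difference was -0.03 (SE 0.080, interval -0.22 to 0.15, adjusted limma p = 0.987, exact permutation p = 0.657). It ran from -0.08 without AAV-Null replicate 3 to -0.00059 without AAV-Null replicate 2.

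*Hmox1*, heme oxygenase 1, breaks heme down to biliverdin, iron and carbon monoxide, and *Nqo1* reduces quinones, among them oxidised dopamine. *Hmox1* (A_43_P11472, NM_012580) read 9.49, 9.31, 9.70 and 9.12 in AAV-Null and 9.69, 9.73, 9.55 and 9.33 in AAV-aSyn. The highest AAV-Null array was above 3 of the 4 AAV-aSyn arrays. The difference was 0.17 (SE 0.14, interval -0.16 to 0.50, limma p = 0.265, adjusted p = 0.971, exact permutation p = 0.257), with 0.40 in the first slide column and -0.06 in the other. It was 0.08 without AAV-Null replicate 4 and 0.27 without AAV-Null replicate 3. *Hmox1* and *Nfe2l2* thus had differences of the same size that came from opposite columns of the slide.

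*Nqo1* (A_64_P005208, NM_017000) read 8.69, 8.65, 8.50 and 8.47 in AAV-Null and 8.67, 8.72, 8.51 and 8.47 in AAV-aSyn. The values matched almost array for array by replicate number, which on this slide was also the row. The difference was 0.01 (SE 0.091, interval -0.20 to 0.22, limma p = 0.886, exact permutation p = 0.743), and its sign turned under some other processing of the arrays.

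The superoxide dismutases convert superoxide to hydrogen peroxide, in the cytosol for *Sod1* and in the mitochondria for *Sod2*. *Sod1* (A_64_P047367, NM_017050) read 15.97, 16.00, 15.98 and 16.04 in AAV-Null and 15.98, 15.90, 15.97 and 15.95 in AAV-aSyn. All 4 AAV-aSyn arrays were below the AAV-Null mean, by little, and the groups overlapped at AAV-Null replicate 1. The difference of -0.05 had the smallest standard error of the set (0.062, interval -0.19 to 0.09, limma p = 0.448, exact permutation p = 0.0857). It was -0.05 within each slide column, and -0.03 without AAV-aSyn replicate 2. *Sod2* (A_64_P110103, NM_017051) read 12.85, 12.81, 12.77 and 12.58 in AAV-Null and 12.73, 12.72, 12.87 and 12.89 in AAV-aSyn. The lowest array was AAV-Null replicate 4, without which the difference went from 0.05 (SE 0.087, interval -0.15 to 0.25, adjusted limma p = 0.981, exact permutation p = 0.571) to -0.01.

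*Gpx4*, the glutathione peroxidase that reduces lipid hydroperoxides in membranes and guards cells against ferroptosis, had the probe A_64_P112467 (NM_001039849). It read 16.72, 16.79, 16.79 and 16.89 in AAV-Null and 16.83, 16.67, 16.82 and 16.79 in AAV-aSyn. The difference was -0.02 (SE 0.073, interval -0.19 to 0.15, adjusted limma p = 0.991, exact permutation p = 0.657). Its sign turned without AAV-Null replicate 4 (0.0097) and without AAV-aSyn replicate 2 (0.015). The dimmer probe for the same transcript, A_64_P129796, gave -0.05 with a wider interval from -0.32 to 0.21 (exact permutation p = 0.971). On this probe AAV-Null replicate 3 read 15.00 while the other 7 arrays lay between 14.52 and 14.65.

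**Figure D2:**
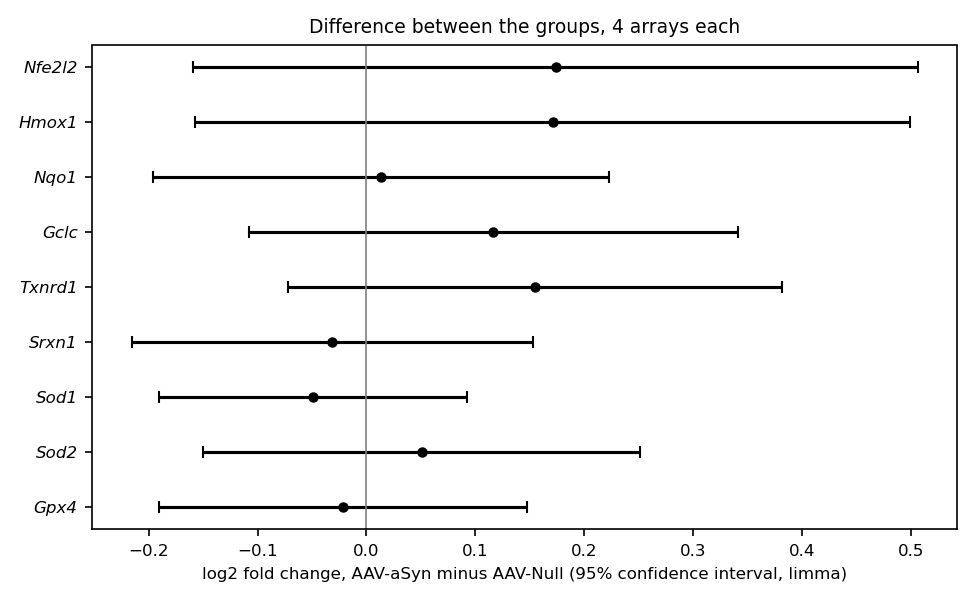
Difference in log2 intensity, AAV-aSyn minus AAV-Null (x axis), for the 9 genes above background on all arrays, with 95% confidence intervals from limma as bars. Every interval crosses 0, and together they reach from -0.22 to 0.51.

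The wider pathway was described through 7 lists holding 99 further genes, of which 96 were tested and 94 were above background on all 8 arrays. At an unadjusted limma p under 0.05 there were 2 genes of 96 (2.08%, against 5.69% of all tested probes), and 0 passed the adjustment. Among the 95 genes above background in both groups, 47 were above 0 and 48 below, from -0.49 to 0.31, with a median of -0.00.

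Groups without overlap were seen for 3 of these 95 genes (3.16%, against 3.83% of all probes). They were *Ccs*, *Pir* and *Prdx3*, a mitochondrial peroxiredoxin named after its values were seen, at 0.10 (adjusted p = 0.963).

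For each list the genes with the smallest p are named, with limma's adjusted p. Leaving out 1 array moved the difference by over 1.5 times, or turned its sign, for 15 of the 22 genes named from the lists other than *Ces1d*, which was too dim to count. Among 11 regulators and partners of NRF2, 6 were above 0 (median 0.05) and 0 had a p under 0.05. The small MAF partners *Maff* and *Mafg* differed by 0.17 (adjusted p = 0.961) and 0.11 (adjusted p = 0.971), and the repressor *Bach1* by -0.26 (adjusted p = 0.971), or -0.10 without AAV-Null replicate 1. *Keap1* differed by -0.04 (adjusted p = 0.987), and by 0.06 without AAV-Null replicate 3.

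Among 24 genes of glutathione synthesis and use, 6 were above 0 (median -0.04) and 0 had a p under 0.05. The peroxidase *Gpx1* differed by -0.10 (adjusted p = 0.971), glutathione reductase *Gsr* by -0.11 (adjusted p = 0.971, and -0.02 without AAV-Null replicate 3) and *Gpx8* by -0.08 (adjusted p = 0.971). In the thioredoxin and peroxiredoxin list, 9 of 13 genes were above 0 (median 0.03) and 0 had a p under 0.05. The 1-Cys peroxiredoxin *Prdx6* was at 0.25 (SE 0.12, limma p = 0.0677, adjusted p = 0.914, exact permutation p = 0.0857), with all 4 AAV-aSyn arrays above the AAV-Null mean, and at 0.15 without AAV-Null replicate 4. *Txnrd3* differed by 0.16 (adjusted p = 0.940) and *Prdx1* by 0.14 (adjusted p = 0.961).

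Among 8 genes that remove superoxide and hydrogen peroxide or repair their damage, 3 were above 0 (median -0.07) and 0 had a p under 0.05. *Ccs*, the chaperone that loads copper into SOD1, read 11.95, 12.01, 12.19 and 11.96 in AAV-Null and 11.88, 11.88, 11.88 and 11.91 in AAV-aSyn. All AAV-aSyn arrays were below all AAV-Null arrays, with a difference of -0.14 (SE 0.076, limma p = 0.0984, adjusted p = 0.937, exact permutation p = 0.0286, the smallest that 4 against 4 arrays can give). It was -0.09 without AAV-Null replicate 3. *Sod1* RNA was at -0.05, and a link between these values was not tested. The mitochondrial carrier *Ucp2* differed by -0.36 (adjusted p = 0.949), or -0.15 without AAV-Null replicate 3, and the methionine sulfoxide reductase *Msrb1* by -0.06 (adjusted p = 0.974).

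Of 9 genes that supply NADPH, the reductant for both systems, 6 were above 0 (median 0.06). Transaldolase *Taldo1* was at 0.15 (adjusted p = 0.939), isocitrate dehydrogenase *Idh1* at 0.14 (adjusted p = 0.944) and the mitochondrial transhydrogenase *Nnt* at 0.12 (adjusted p = 0.971), none past the test. Without AAV-Null replicate 3, *Idh1* was at 0.09 and *Nnt* at 0.04.

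Of 22 other NRF2 target genes, 13 were above 0 (median 0.02). Both values count the dim *Ces1d*, which the plot by list leaves out. At a p under 0.05 there was 1 gene. This was *Pir*, the iron-binding protein pirin, which read 11.37, 11.39, 11.22 and 11.22 in AAV-Null and 11.43, 11.51, 11.47 and 11.55 in AAV-aSyn. The groups did not overlap. The difference was 0.19 (SE 0.073, limma p = 0.0316, adjusted p = 0.838, exact permutation p = 0.0286), with 0.15 and 0.23 in the slide columns, and it did not pass the adjustment. Its unadjusted p was no longer under 0.05 with the replicate number as a block, nor without AAV-Null replicate 4 or AAV-aSyn replicate 2, 3 or 4. The carboxylesterase *Ces1d* was above background on 2 AAV-Null arrays and 0 AAV-aSyn arrays, and so was tested through AAV-Null alone (adjusted p = 0.918). It read 2.31, 4.06, 3.11 and 6.16 in AAV-Null and from 1.20 to 3.01 in AAV-aSyn, and no fold change is given because AAV-Null replicate 4 set its size. *Osgin1* was also dim, above background on 3 arrays of each group and between 3.51 and 4.28 on all 8, and was at -0.31 (adjusted p = 0.941).

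Of 9 genes of lipid peroxidation and ferroptosis, 4 were above 0 (median -0.06) and 1 had a p under 0.05. *Alox5*, the arachidonate 5-lipoxygenase, read 7.37, 7.52, 7.09 and 7.62 in AAV-Null and 6.83, 7.26, 6.44 and 7.10 in AAV-aSyn. The difference was -0.49 (SE 0.19, limma p = 0.0332, adjusted p = 0.840, exact permutation p = 0.0857). By slide column it was -0.93 in the first and -0.05 in the other. Its unadjusted p was no longer under 0.05 without AAV-Null replicate 1, 2 or 4 or AAV-aSyn replicate 1 or 3. *Aifm2*, which encodes the ferroptosis suppressor FSP1, differed by -0.30 (adjusted p = 0.918) and the iron exporter *Slc40a1* by -0.32 (adjusted p = 0.922, and -0.20 without AAV-Null replicate 3).

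**Figure D3:**
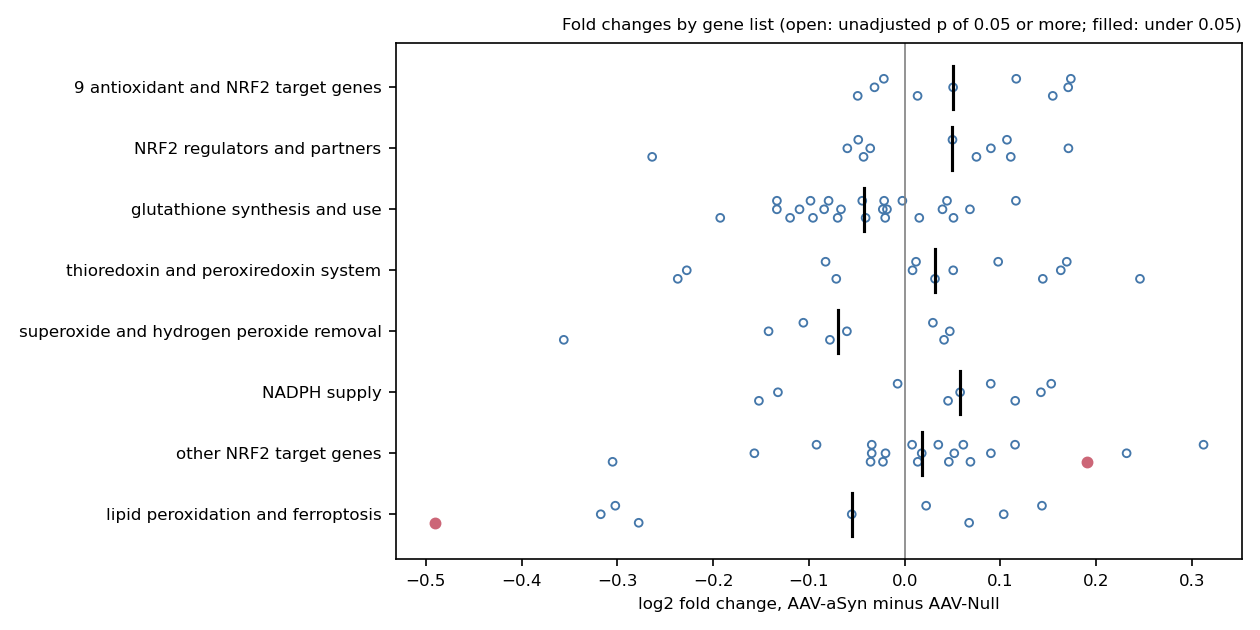
Difference in log2 intensity, AAV-aSyn minus AAV-Null (x axis), for each gene above background in both groups, by list (rows), with the median of each list as a vertical bar. Filled points have an unadjusted limma p under 0.05, and Pir and Alox5 are the only genes so marked.

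Across the 8 arrays, *Nfe2l2* was set against the other 8 measurable genes of the set, a comparison chosen after the values had been seen. Pearson's r was 0.90 for *Gclc* (exact permutation p = 0.0281, adjusted over 8 relations 0.0748), with Spearman's rho of 0.52 (p = 0.197). For *Txnrd1* r was 0.74 (exact permutation p = 0.0212, adjusted 0.0748) and rho 0.48 (p = 0.243). Leaving out AAV-Null replicate 3 and AAV-aSyn replicate 2, the arrays farthest from the median of *Nfe2l2*, r was 0.17 for *Gclc* and -0.04 for *Txnrd1*, so these relations rested on those arrays. For *Srxn1* r was 0.69 (exact permutation p = 0.0214, adjusted 0.0748, rho 0.69, p = 0.0694), and 0.38 without them. *Nqo1* had r of 0.58 (exact permutation p = 0.0649, adjusted 0.130) and rho of 0.74 (p = 0.0458, adjusted 0.278), and 0.70 without them. For *Hmox1*, *Sod1*, *Sod2* and *Gpx4* r lay between -0.30 and -0.13, and without those arrays it was 0.29, 0.21, -0.45 and 0.09 in that order, so the sign turned for all but *Sod2*. No relation passed the adjustment.

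Of 12590 other named genes above background on all 8 arrays, those whose levels ran most like *Nfe2l2* were *Nudcd2* (r = 0.99, rho = 0.95), *Rab23* (r = 0.98, rho = 0.83) and *Mtmr10* (r = 0.98, rho = 0.71), given as a description over 8 arrays of 1 slide. Each of them was lowest on AAV-Null replicate 3, as *Nfe2l2* was. *Nudcd2*, for example, read 7.54 there and 7.94 to 8.21 on the other 7 arrays, so the ranking favours genes that were low on that array.

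**Figure D4:**
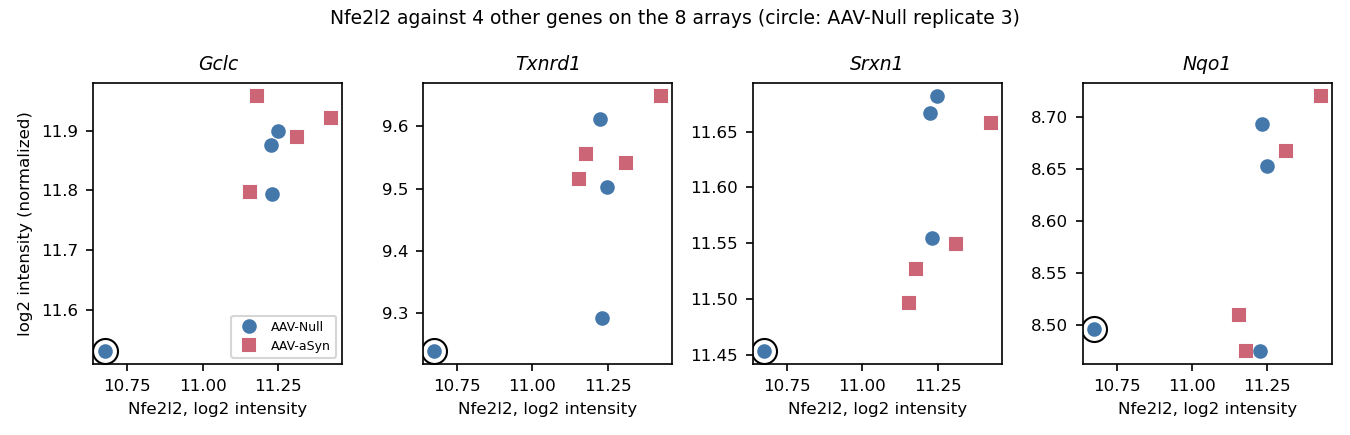
Log2 intensity of Gclc, Txnrd1, Srxn1 and Nqo1 (y axes) against Nfe2l2 (x axis), with 1 point per array, AAV-Null as circles and AAV-aSyn as squares. AAV-Null replicate 3, ringed, stands alone at the left of each panel at 10.67, and the other arrays lie between 11.16 and 11.43.

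The tissue was checked by marker lists. Beside the counts below, an unadjusted p under 0.05 was seen in 5.69% of all tested probes (3.42% higher and 2.27% lower in AAV-aSyn). The 8 markers of DA neurons were all above background, and their mean log2 intensity was 12.03 to 12.40 in AAV-Null and 11.58 to 11.88 in AAV-aSyn. All 8 were below 0, 4 with an unadjusted p under 0.05, namely *Pitx3*, *Ddc*, tyrosine hydroxylase *Th* (-0.52, adjusted limma p = 0.477, exact permutation p = 0.0286) and the dopamine transporter *Slc6a3* (-0.79, adjusted p = 0.746, exact permutation p = 0.0571). The mean of the 7 markers of astrocytes ranged from 13.27 to 13.78 in AAV-Null and from 13.42 to 13.65 in AAV-aSyn. Of the 7, 0 had an unadjusted p under 0.05, and the same count held for 7 microglial and 7 oligodendrocyte markers. Of 6 general neuronal markers 1 was lower (*Syt1*, -0.40, adjusted p = 0.676), and of 6 endothelial markers 1 was higher (*Kdr*, 0.27, adjusted p = 0.772), at an unadjusted p under 0.05. The 6 markers of red blood cells were all below 0 with none under that threshold, and their mean ranged from 11.27 to 12.92 in AAV-Null and from 11.78 to 12.63 in AAV-aSyn. The 6 markers of serotonergic neurons, which lie outside the SN, were all above 0 (median 0.97), and 4 were above background on all 8 arrays. Their mean ranged from 5.31 to 7.34 in AAV-Null and from 6.70 to 7.85 in AAV-aSyn. At an unadjusted p under 0.05, 2 of 6 (*Tph2* and *Slc6a4*) were higher. AAV-Null replicate 3, the array low for *Nfe2l2* and *Gclc*, held the 7.34, and the other AAV-Null arrays lay at 5.94 or less. The part of these markers in the values of the antioxidant genes was not tested.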

How the data were processed

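SN RNA was hybridised to 1-colour Agilent rat arrays, 8 on 1 slide with 1 scan. The authors extracted spots with Feature Extraction (12.0.3.2 in the file headers, 11.5.1.1 in the submitters' processing notes), and the deposited processed intensity of each spot was used. The deposited log2 matrix (median 8.19) ranked the spots of an array identically and served as an alternative. Each array had 58717 non-control spots, of which 74.8 to 77.5% were well above background, and arrays correlated at 0.983 to 0.993. The number of arrays limits the precision. The study's methods name fewer arrays per group than the 4 used here.

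From the deposited intensities, outlier spots (268 to 418 per array) were dropped, log2 values were quantile normalised and spots of a probe averaged. Testing covered 33848 probes, each measured above background on 1 array or more, with limma 3.58.1 in R 4.3.3 and Benjamini-Hochberg adjustment. Single values were also tested by exact permutation over arrays, and p in the text is two-sided and unadjusted unless named. Members and lists were chosen with earlier results of these data known. Named were all members, the 3 genes of smallest p per pathway list, *Th*, *Slc6a3* and the 3 genes most like *Nfe2l2*. *Keap1*, *Prdx3* and the other markers with an unadjusted p under 0.05 were named outside this rule. Gene symbols came from RefSeq accessions. Array coordinates were not used, since the build in the headers differed from that of the promoters.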

Additional observations from a re-analysis of the deposited data

Results flagged for a closer look

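Dixon's ratio, the gap of the lowest or highest array to its neighbour over the range of its group of 4, was above its 95% critical value in 4 of 70 groups examined, where chance gives about 3.5. For *Nfe2l2*, AAV-Null replicate 3 read 10.67 and the other AAV-Null arrays 11.23 to 11.25, a ratio of 0.959. For the dimmer *Gpx4* probe, the same array read 15.00 and the others 14.52 to 14.60, a ratio of 0.839. For *Prdx1*, AAV-aSyn replicate 3 read 12.22 and the others 12.32 to 12.33, a ratio of 0.900. For *Ccs*, AAV-aSyn replicate 4 read 11.91 while the others were at 11.88, a ratio of 0.873.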

How the results depend on the processing

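Under 11 processing alternatives the genes had 101 values, of which 49 could not move, because a filter, a block or an intensity trend leaves the difference of the means as it was. Of the other 52, 50 kept their direction and 2 reversed. Both were *Nqo1*, at -0.013 with cyclic loess and -0.062 with array weights. These counts include *Gclm*, which was too dim for its direction to be read. Array weights also took *Nfe2l2* from 0.17 to 0.031, *Gclc* from 0.12 to 0.017, *Txnrd1* from 0.15 to 0.095, *Sod2* from 0.05 to 0.020 and *Srxn1* from -0.03 to -0.10. Other moves of over 1.5 times were small in size: *Nqo1* 0.030 with normexp and 0.0074 with the deposited matrix, *Srxn1* -0.051 with cyclic loess and -0.019 with normexp, *Sod1* -0.075 with 75th percentile scaling and -0.029 with normexp, *Sod2* 0.026 with cyclic loess, *Gpx4* -0.050 with 75th percentile scaling, -0.038 with the deposited matrix and -0.037 as the mean of its probes, and *Txnrd1* 0.088 as the mean of its probes. With each array left out in turn, 7 of 80 values reversed, for *Nqo1* (-0.029 to 0.053), *Sod2* (-0.0077 to 0.084) and *Gpx4* (-0.048 to 0.015). *Gclm* was among the 80 too. The lowest adjusted p of any gene of the set under these alternatives was 0.322. The count of these genes with an unadjusted p under 0.05 stayed at 0 except for *Txnrd1* without AAV-Null replicate 4, so it ran from 0 to 1. *Gclm* was not tested where 4 arrays above background were required. The pathway lists went from 2 genes to 6 with normexp (6.25%, against 5.52% of all probes), 4 with an intensity trend (4.17%, against 5.40%) and 14 with array weights (14.6%, against 16.9%). With an array left out they had 1 to 7 genes, 7 without AAV-Null replicate 3 (7.29%, against 8.11%), 6 without AAV-Null replicate 1 (6.25%, against 6.20%), 4 without AAV-Null replicate 4 (4.17%, against 8.24%) and 1 without AAV-Null replicate 2 (1.04%, against 4.49%) or AAV-aSyn replicate 3 (1.04%, against 5.12%). *Ces1d*, tested through AAV-Null alone, was among the 14, the 6 without AAV-Null replicate 1 and the 4 with the replicate block below, and without it, a count added after seeing the data, these were 13, 5 and 3. Over all probes, array weights gave 5723 unadjusted and 12 adjusted calls in place of 1927 and 5, and leaving out an array gave 1436 to 2790 and 3 to 5. The cause of these moves was not tested.

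Replicate numbers were shared by the groups, and arrays of the same number lay in the same slide row. The same-number correlations of deviations from the group means were 0.15, 0.26, 0.04 and -0.00. AAV-Null replicates 1 and 2 correlated best with the AAV-aSyn array of their own number, and replicates 3 and 4 with AAV-aSyn replicate 1. The labels do not say whether arrays of a number shared a batch, and this was not tested. With the replicate block the pathway lists had 4 genes (4.17%, against 6.52%, *Alox5* but not *Pir* among them) and all probes 0 adjusted calls (2207 unadjusted), and no gene of the set passed the adjustment.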
